A study of Mus musculus with 214 samples.

Results

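The genes described here are 34 genes of Kupffer cells and recruited macrophages, of 18647 genes measured in WT and 19540 genes measured in Mgmt-/- mouse livers, and they were taken by symbol from a list of known markers. By role they comprised, first, 9 genes of resident Kupffer cells (Clec4f, Vsig4, Timd4, Folr2, Cd5l, Marco, C1qa, C1qb, and C1qc) and 4 genes of recruited and lipid-associated macrophages (Mmp12, Gpnmb, Trem2, and Lgals3). A further 10 were genes of macrophages in general (Adgre1, Csf1r, Cd68, Cd14, Cd163, Mrc1, Lyz2, Aif1, Mpeg1, and Cybb), and 3 were genes of receptor adaptors and leukocyte membranes (Tyrobp, Fcer1g, and Laptm5). The remainder were 4 genes of monocytes and integrins (Ccr2, Ms4a7, Itgam, and Itgax) and 4 genes of lysosomes, tetraspanins, and iron export (Ctsb, Cd63, Cd9, and Slc40a1). Spp1, another gene of lipid-associated macrophages, was kept out of the list because bile duct cells also express it.

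Kupffer cells are macrophages that settle in the liver sinusoids before birth, renew themselves there, and clear bacteria, worn red cells, and debris from portal blood. When hepatocytes die, monocytes enter through the chemokine receptor CCR2 and become macrophages, and some of these take on a program of phagocytosis, lysosomal digestion, and lipid uptake that is marked by Trem2, Gpnmb, and Cd9. Several of the genes are not exclusive to macrophages, since Lgals3, Cd63, Cd9, and Ctsb are also expressed by epithelial cells.

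RNA was taken from livers of WT mice, which were C57BL6 carrying RaDR+/+;GPT+/+, and of Mgmt-/- mice, which lacked the DNA repair gene Mgmt in all tissues and also carried RaDR+/+;GPT+/+, a pair of reporters for recombination and mutation. Mice received saline or the DNA-methylating nitrosamine NDMA by intraperitoneal injection at 3.5 mg/kg at 8 days of age and 7 mg/kg at 15 days of age, with litters assigned to a treatment at birth. Livers were collected 1, 2, and 5 days, 10 weeks, and 10 months after the second dose. At these 5 times there were 26, 8, 8, 8, and 13 NDMA-treated and 21, 8, 7, 8, and 10 saline-treated WT mice, and 12, 8, 8, 8, and 13 NDMA-treated and 12, 7, 8, 8, and 12 saline-treated Mgmt-/- mice. Each library was 3' digital gene expression, in which reads come from the 3' end of transcripts. All values below are normalized read counts, that is, reads divided by a size factor of the library. Each genotype was normalized by itself, so levels are compared only within a genotype.

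The targeted gene followed the labels. Mgmt was between 13 and 129 (median 34.9) in WT saline livers and between 16.2 and 130.1 (median 60.6) in WT NDMA livers. It was between 0 and 9.24 (median 0.822) in Mgmt-/- saline livers and between 0 and 9.67 (median 1.30) in Mgmt-/- NDMA livers, and each WT library was higher. The genotypes were normalized separately, so these levels are set side by side only to check the labels. The 114 WT libraries with recovered read numbers held 150038 to 4791649 reads (median 1710016), and the 95 such Mgmt-/- libraries held 713584 to 7740710 reads (median 2347670).

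Some libraries stood apart. In 2 libraries labelled as Mgmt-/- saline liver at day 5 (D389017 and D389011), 5 kidney genes averaged 4983 and 4432 while hepatocyte genes averaged 319 and 469.9. In these 2 libraries Clec4f was 0.545 and 1.41, Vsig4, Marco, and Timd4 were at 0, and Cd63 was 8289 and 7575. Most day 5 values of the named genes and counts of calls in Mgmt-/- livers are therefore given with and without them. Day 5 sums of the markers of other cells, counts under equal totals, and log2 fold changes from the edgeR fit of both genotypes include them. A further 4 WT NDMA libraries held fewer than 300000 reads (D215006 at day 2, D215014 at day 5, D215022 at week 10, and D215030 at month 10), and the sex genes of 2 WT NDMA libraries at day 1 went against their labels.

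RefSeq promoter windows, from 250 bases before to 50 bases after a transcript start (assembly GRCm38.p6), were found for 27 of the 34 genes, with 30 windows in all. Windows are shown for a pair of resident genes that were lower 1 day after NDMA and for a pair of recruited genes that were higher, each 5' to 3' on the gene's own strand. Capitals mark the searched letters on either strand, which were GAGGAA and GGAAGT, the core of sites of PU.1, a transcription factor of macrophages, TGAGTCA, the AP-1 site, and CACGTG, the E-box of the MITF and TFEB family.
Clec4f, chr6:83656067-83656366, minus strand: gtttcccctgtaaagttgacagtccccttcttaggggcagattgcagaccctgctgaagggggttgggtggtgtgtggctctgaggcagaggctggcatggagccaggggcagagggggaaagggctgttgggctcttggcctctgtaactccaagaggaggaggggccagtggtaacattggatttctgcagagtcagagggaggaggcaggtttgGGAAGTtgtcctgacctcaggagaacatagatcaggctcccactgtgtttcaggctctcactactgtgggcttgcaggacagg
Vsig4, chrX:96293389-96293688, minus strand: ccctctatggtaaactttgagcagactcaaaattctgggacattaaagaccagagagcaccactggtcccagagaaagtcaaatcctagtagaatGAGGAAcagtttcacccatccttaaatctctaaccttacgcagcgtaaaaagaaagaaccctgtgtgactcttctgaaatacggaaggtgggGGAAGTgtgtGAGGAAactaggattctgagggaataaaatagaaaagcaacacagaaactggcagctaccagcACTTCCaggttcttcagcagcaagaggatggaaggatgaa
Gpnmb, chr6:49036268-49036567, plus strand: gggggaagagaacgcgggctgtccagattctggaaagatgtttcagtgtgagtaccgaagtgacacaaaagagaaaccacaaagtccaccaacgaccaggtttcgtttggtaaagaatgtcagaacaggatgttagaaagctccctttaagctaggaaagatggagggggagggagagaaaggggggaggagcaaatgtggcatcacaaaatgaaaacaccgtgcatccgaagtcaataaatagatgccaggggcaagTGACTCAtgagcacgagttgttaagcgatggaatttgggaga
Mmp12, first start, chr9:7344147-7344446, plus strand: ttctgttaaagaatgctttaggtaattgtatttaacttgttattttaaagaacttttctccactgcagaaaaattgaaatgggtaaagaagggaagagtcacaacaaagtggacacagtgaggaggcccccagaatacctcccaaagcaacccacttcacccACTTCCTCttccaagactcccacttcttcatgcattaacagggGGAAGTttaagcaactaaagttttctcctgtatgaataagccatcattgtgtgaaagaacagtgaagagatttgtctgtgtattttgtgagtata
Mmp12, second start, chr9:7347124-7347423, plus strand: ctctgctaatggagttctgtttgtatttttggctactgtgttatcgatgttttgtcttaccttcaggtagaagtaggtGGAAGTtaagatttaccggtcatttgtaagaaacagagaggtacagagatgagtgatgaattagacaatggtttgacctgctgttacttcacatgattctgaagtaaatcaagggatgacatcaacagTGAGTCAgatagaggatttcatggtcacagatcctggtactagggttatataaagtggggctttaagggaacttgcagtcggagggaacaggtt
GAGGAA was present in 15 of the 30 windows, against 28.28% of all 32851 windows of this length, and GGAAGT in 15, against 23.77%. TGAGTCA was in 5 windows (Cd68, Folr2, Gpnmb, Itgax, and Mmp12), against 5.202% of all windows. CACGTG was in no window of these genes and in 7.15% of all windows. These are matches of letters only, and they describe the windows without showing that any factor binds there.

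In Mgmt-/- livers, Lgals3 was higher at all 5 times, and the other genes of recruited and lipid-associated macrophages were higher where their levels let them be tested. Genes of resident Kupffer cells differed among themselves, with Clec4f and Vsig4 lower at day 1 and Marco, Cd5l, and the C1q genes higher at some times. Differences were tested with limma on log2(value + 1) with sex and library batch as terms, with p-values adjusted by Benjamini-Hochberg. A call needed an adjusted p under 0.05 together with a log2 fold change beyond 0.58 in size. Log2 fold changes, also given as log2 differences, are NDMA minus saline on the log2(value + 1) scale, which understates the change of genes with low values. A gene entered a test when its mean was at least 5 over the libraries of that comparison. Several recruited genes were near 0 in saline livers and passed only through the NDMA group, so their entry to the test already needed a difference.

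**Figure D1:**
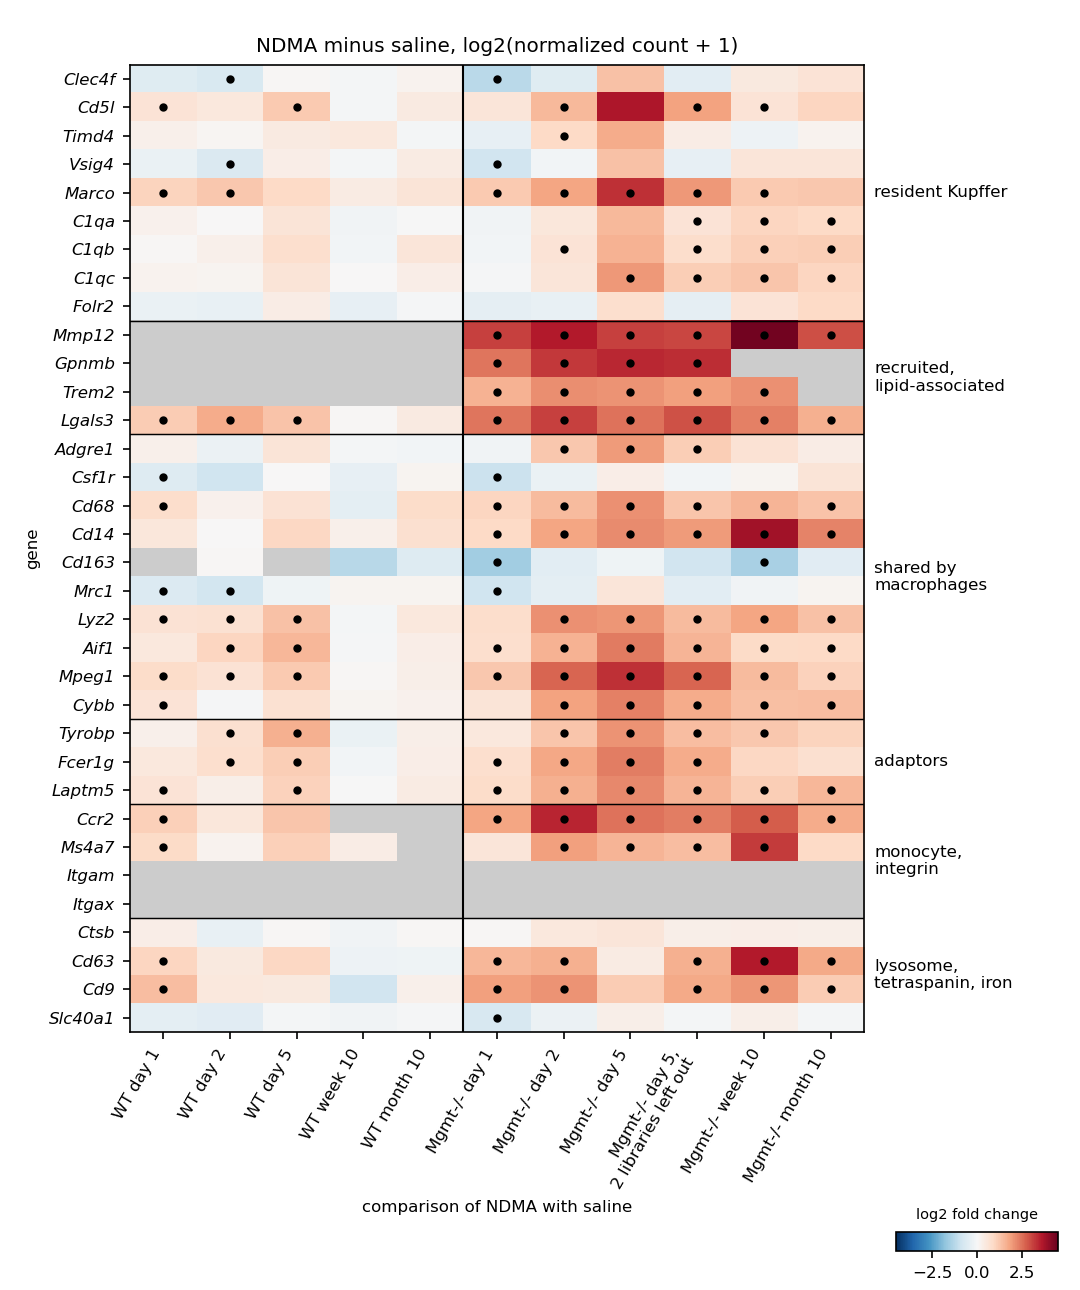
Log2 fold change (NDMA minus saline, log2(value + 1) scale, color scale) of the 34 genes (vertical, by role) in 5 comparisons of WT livers and 6 of Mgmt-/- livers (horizontal), with day 5 of Mgmt-/- shown with and without the 2 libraries with kidney transcripts. Grey cells are genes under a mean of 5, which were not tested, and dots are called genes: Mmp12, Lgals3, Cd68, Cd14, Aif1, Mpeg1, Laptm5, and Ccr2 carry a dot at all 5 times in Mgmt-/- livers, and no gene carries one in WT at week 10 or month 10.

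Mmp12 encodes macrophage metalloelastase, a protease that degrades elastin. At day 1 in Mgmt-/- livers it was between 3.44 and 29.2 (median 7.65) after NDMA and between 0 and 1.33 (median 0) after saline, a log2 difference of 3.09 ± 0.33 (SE; limma adjusted p = 2.89e-09). The NDMA levels came from 132 whole reads in the 11 libraries in which reads were recovered, and the saline levels from 3 in 12. All 12 NDMA libraries were above all 12 saline libraries. By day 2 its level was between 4.85 and 43.8 (median 10.2) after NDMA, with 158 reads, and at 0 in all 7 saline libraries. It was thus at least 46.6-fold higher with the saline group set to a floor of 3 reads over the group. At day 5 it was between 8.48 and 34.6 (median 23.1) against 0 to 29.0 (median 1.25), a log2 difference of 3.06 ± 0.59 (limma adjusted p = 0.00214), and 2.99 ± 0.69 (0.00553) without the 2 kidney-bearing libraries. The groups overlapped there through 1 saline library, D389048, at 29.0, and the call was lost with edgeR on whole reads (2.48, edgeR adjusted p = 0.0532) and with DESeq2 without the kidney-bearing libraries (2.28, DESeq2 adjusted p = 0.0697). At week 10 it reached its highest levels, between 18.4 and 75.0 (median 39.6) against 0 to 8.48 (median 0.433), a log2 difference of 4.35 ± 0.44 (limma adjusted p = 2.85e-07). At month 10 it was between 3.22 and 32.4 (median 13.5) against 0 to 3.86 (median 0), a log2 difference of 2.90 ± 0.36 (limma adjusted p = 2.05e-06), and 12 of 13 NDMA livers were above every saline liver.

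Lgals3 encodes galectin-3, a sugar-binding lectin that phagocytes make in large amounts. It was between 75.9 and 350.1 (median 153) after NDMA and between 13.3 and 175 (median 26.4) after saline at day 1 (log2 fold change 2.42 ± 0.22, limma adjusted p = 1.3e-09), when 5 of 12 NDMA livers were above every saline liver. At day 2 galectin-3 transcripts were between 105 and 219.6 (median 133) against 6.88 to 31.9 (median 19.2), a log2 difference of 3.06 ± 0.28 (limma adjusted p = 9.81e-08), with no overlap. At day 5 the log2 fold change was 2.44 ± 0.32 (limma adjusted p = 7.28e-05) and 2.87 ± 0.19 (8.81e-11) without the kidney-bearing libraries, in which Lgals3 was 70.8 and 72.5 against 14.6 to 23.4 in the other 6 saline livers. All 8 NDMA livers were above every saline liver in either case. Its week 10 level was between 137 and 275 (median 172) against 15.7 to 62.2 (median 41.3), a log2 difference of 2.27 ± 0.23 (limma adjusted p = 2.8e-07), again with no overlap. At month 10 it was between 35.5 and 164 (median 74.0) against 9.72 to 59.1 (median 24.1), a log2 difference of 1.61 ± 0.27 (limma adjusted p = 0.000184), with 8 of 13 NDMA livers above every saline liver.

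Gpnmb, a transmembrane glycoprotein of phagolysosomes, and Trem2, a lipid-sensing receptor of macrophages, were lower in abundance of reads and were not testable at every time. Gpnmb was between 0 and 31.2 (median 10.3) against 0 to 5.04 (median 0.756) at day 1, a log2 difference of 2.42 ± 0.42 (limma adjusted p = 2.36e-05). It was between 7.01 and 43.8 (median 11) against 0 to 1.27 (median 0.734) at day 2 (log2 fold change 3.18 ± 0.39, limma adjusted p = 5.83e-07). It was between 5.87 and 51.3 (median 17.7) against 0 to 5.11 (median 0.880) at day 5 (3.38 ± 0.48, limma adjusted p = 0.000124), with 3.33 ± 0.47 (1.3e-05) without the kidney-bearing libraries. The groups did not overlap at day 2 or day 5. At week 10 Gpnmb was under the mean of 5, with 110 reads over the NDMA group and none over the saline group, which makes it at least 20.2-fold higher against the floor of 3 reads. At month 10 it was not tested either, at 0.951 to 16.2 (median 3.32) against 0 to 3.47 (median 0).

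Trem2 was between 2.30 and 17.1 (median 9.53) after NDMA and between 0 and 5.97 (median 2.02) after saline at day 1, a log2 difference of 1.58 ± 0.40 (limma adjusted p = 0.00268). Its log2 fold change was 2.09 ± 0.39 (limma adjusted p = 0.000156) at day 2 and 2.02 ± 0.41 (0.00314) at day 5, or 1.85 ± 0.41 (0.00145) without the kidney-bearing libraries. At week 10 it was between 5.11 and 30.1 (median 13.4) against 0 to 5.60 (median 3.08), a log2 difference of 2.05 ± 0.39 (limma adjusted p = 0.000796), with 7 of 8 NDMA livers above every saline liver. At month 10 it was not tested, and its values were 1.45 to 23.1 (median 4.16) against 0 to 4.43 (median 0.794). In every Mgmt-/- test with all libraries, Mmp12, Gpnmb, and Trem2 had entered through the NDMA group alone, so their calls are not counted as support. Lgals3, the recruited gene that entered without this limit, was called higher at all 5 times.

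**Figure D2:**
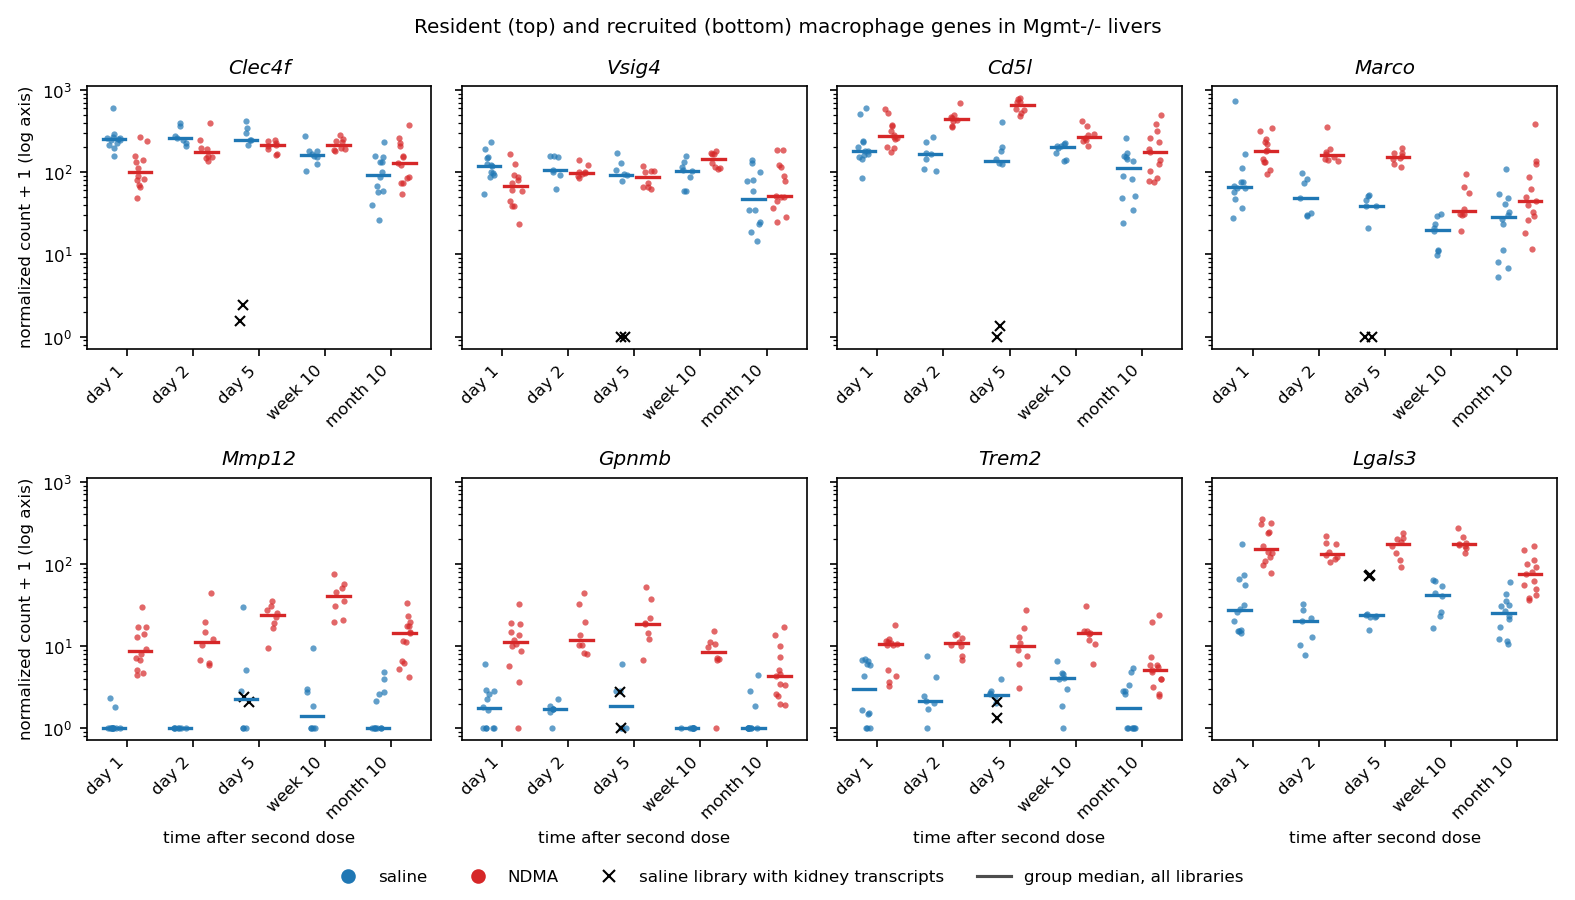
Normalized read count plus 1 (vertical, log axis) of 8 of the genes in each Mgmt-/- library at the 5 collection times (horizontal), with saline and NDMA libraries side by side, each point 1 liver, lines the group medians, and crosses the 2 saline libraries with kidney transcripts. The medians of Mmp12, Gpnmb, Trem2, and Lgals3 lie higher after NDMA at each time, whereas that of Clec4f lies lower at day 1 (101 against 250.02).

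Among resident genes, Clec4f, a C-type lectin found on Kupffer cells, was between 46.9 and 268 (median 101) after NDMA and between 154 and 606 (median 250.02) after saline at day 1 in Mgmt-/- livers. The log2 fold change was -1.23 ± 0.23 (limma adjusted p = 0.000186), 9 of 12 NDMA livers were below every saline liver, and within the batches 191212Eng and 200803Eng it was -1.02 and -1.65. At day 2 it was -0.54 ± 0.21 (limma adjusted p = 0.0684) and at day 5, without the kidney-bearing libraries, -0.48 ± 0.14 (0.012), under the fold threshold. With those libraries the day 5 value was 1.32 ± 1.21 (0.535). At week 10 Clec4f was between 177 and 281 (median 215) against 101 to 276 (median 161), and its log2 fold changes of 0.43 (limma adjusted p = 0.134) at week 10 and 0.62 (0.201) at month 10 did not pass the test. In bulk libraries such as these, fewer Kupffer cells and less of a transcript in each Kupffer cell cannot be told apart.

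Vsig4, a complement receptor of the immunoglobulin family on Kupffer cells, was also lower at day 1, between 22.4 and 166 (median 66.5) against 53.7 to 233 (median 119), at -0.87 ± 0.27 (limma adjusted p = 0.0202). Within batch 191212Eng alone it was -0.77 (0.138), and within 200803Eng alone it was -1.07 (0.0496). At later times its log2 fold changes were between -0.36 and 0.55 with the kidney-bearing libraries left out of day 5 (1.33 ± 1.13 there with them), and none passed the test. Timd4, a phosphatidylserine receptor that captures dying cells, was called only at day 2, when it was between 51.6 and 114 (median 65.1) against 18.0 to 70.4 (median 38.5), a log2 difference of 0.88 ± 0.27 (limma adjusted p = 0.0204). At day 5 it was at 0.33 (limma adjusted p = 0.26) without the kidney-bearing libraries and 1.68 (0.271) with them. Folr2, a folate receptor of tissue macrophages, did not pass the test at any time, with log2 fold changes between -0.42 at day 1 and 0.91 at month 10, and at day 5 -0.40 (limma adjusted p = 0.11) without the kidney-bearing libraries and 0.77 (0.579) with them.

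Cd5l and Marco were higher where they passed the test. Cd5l encodes a secreted protein that keeps macrophages from apoptosis. At day 2 it was between 358 and 702 (median 439) after NDMA against 101 to 267 (median 164) after saline, a log2 difference of 1.47 ± 0.20 (limma adjusted p = 1.26e-05), with no overlap. At day 5 it was between 482 and 798 (median 652) against 125 to 403 (median 162) in the 6 saline livers without kidney transcripts, a log2 difference of 1.82 ± 0.22 (limma adjusted p = 1.37e-05). With the other 2 libraries, at 0 and 0.352, it was 3.64 ± 1.23 (0.0741). Its log2 fold change was 0.54 at day 1 (limma adjusted p = 0.158), 0.61 ± 0.18 at week 10 (0.025), and 0.95 ± 0.34 at month 10 (0.0742). The week 10 call was lost without any 1 of 4 libraries (saline D209002 and D209003 and NDMA D209005 and D209006), with log2 fold changes between 0.52 and 0.56.

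Marco encodes a scavenger receptor that binds bacteria and particles. At day 1 it was between 93.9 and 339 (median 181) against 26.7 to 738 (median 65.1), a log2 difference of 1.19 ± 0.40 (limma adjusted p = 0.0308). The call was lost with edgeR (0.71, edgeR adjusted p = 0.135) and DESeq2 (0.72, DESeq2 adjusted p = 0.216) on whole reads, and within batch 200803Eng (0.59, limma adjusted p = 0.823). At day 2 it was between 136 and 351 (median 159.5) against 28.3 to 96.2 (median 46.9), a log2 difference of 1.77 ± 0.28 (limma adjusted p = 0.000191). At day 5 it was between 115 and 197 (median 152) against 20.0 to 51.1 (median 41.1) without the kidney-bearing libraries (1.94 ± 0.17, limma adjusted p = 6.22e-09), and 3.27 ± 0.89 (0.0286) with them. All NDMA livers were above every saline liver at both times. At week 10 it was between 18.2 and 95.2 (median 32.3) against 8.90 to 30.3 (median 19.0), a log2 difference of 1.18 ± 0.32 (limma adjusted p = 0.015), and at month 10 it was 1.2 ± 0.45 (0.0962).

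C1qa, C1qb, and C1qc encode the chains of complement C1q and lie next to each other on chromosome 4 (C1qb at chr4:136880129-136886187, C1qc at chr4:136889804-136893065, and C1qa at chr4:136895917-136898803; GRCm38). At day 1 their log2 fold changes were between -0.15 and -0.05, and none passed the test. At week 10 C1qc was between 172 and 248 (median 194) against 37.6 to 116 (median 94.3), a log2 difference of 1.26 ± 0.19 (limma adjusted p = 7.09e-05). C1qb was between 194 and 336 (median 225) against 45.9 to 157 (median 120.1) at week 10, a log2 difference of 1.06 ± 0.20 (limma adjusted p = 0.000771). C1qa was between 103 and 173 (median 138) against 38.6 to 103 (median 77.8), a log2 difference of 0.96 ± 0.19 (0.00121). The week 10 groups of C1qb and C1qc did not overlap, and 7 of 8 NDMA livers were above every saline liver for C1qa. At month 10 the 3 chains were at 0.90 ± 0.24 (limma adjusted p = 0.0154), 1.12 ± 0.36 (0.0497), and 0.97 ± 0.26 (0.0124) for C1qa, C1qb, and C1qc. The C1qb call was lost there with a pseudocount of 5 (1.05, limma adjusted p = 0.0536) and with no covariates (1.12, 0.0544). At day 5 without the kidney-bearing libraries they were at 0.62, 0.78, and 1.10, all called. With those libraries they were at 1.48 (limma adjusted p = 0.117), 1.58 (0.073), and 1.95 (0.04), of which C1qc was called. The call of C1qb at day 2 (0.61 ± 0.19, 0.021) was lost without any 1 of 3 libraries (saline D389006 and D389035 and NDMA D389077), at 0.54, 0.51, and 0.46.

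Counted together in Mgmt-/- livers, the 9 resident genes were called higher in 1, 4, 2, 5, and 3 cases and lower in 2, 0, 0, 0, and 0 cases from day 1 to month 10. At day 5 without the kidney-bearing libraries, 5 were higher. Of all genes tested, 9.06%, 12.4%, 7.17% (11.1% without those libraries), 7.27%, and 4.75% were called higher, so the 1 higher gene of 9 at day 1 was near the share of all genes. The shares called lower were 8.64%, 7.5%, 3.14% (6.71% without those libraries), 3.88%, and 2.99%. The counts of 0 lower of 9 were near these shares and are not read as a result about the resident genes. The resident genes' median log2 fold changes at the 5 times were -0.15, 0.53, 1.58 (0.62 without those libraries), 0.61, and 0.91, beside medians between -0.01 and 0.04 over all genes tested. The mean of log2(value + 1) was taken over the 4 recruited genes minus that over the 9 resident genes. This recruited mean includes Mmp12, Gpnmb, and Trem2, which entered Mgmt-/- tests with all libraries through the NDMA group alone. The recruited mean and the difference are therefore not counted as support. In saline livers this difference was -4.83, -4.90, -4.37 (without the kidney-bearing libraries; -3.04 with them), -3.99, and -3.53 from day 1 to month 10. In NDMA livers it was -2.28, -2.44, -2.21, -1.83, and -2.33. The recruited mean at day 1 was 4.30 ± 0.72 (SD, n = 8) in NDMA livers and 1.62 ± 0.46 (n = 8) in saline livers of batch 191212Eng. In batch 200803Eng it was 4.12 ± 0.46 (n = 4) and 2.34 ± 0.57 (n = 4). The resident mean was 6.62 ± 0.56 and 6.55 ± 0.44 in batch 191212Eng and 6.32 ± 0.34 and 6.96 ± 0.68 in batch 200803Eng. At week 10 the recruited mean was 4.83 ± 0.50 after NDMA and 1.96 ± 0.28 after saline (n = 8 each) and the resident mean 6.66 ± 0.19 and 5.95 ± 0.40.

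**Figure D3:**
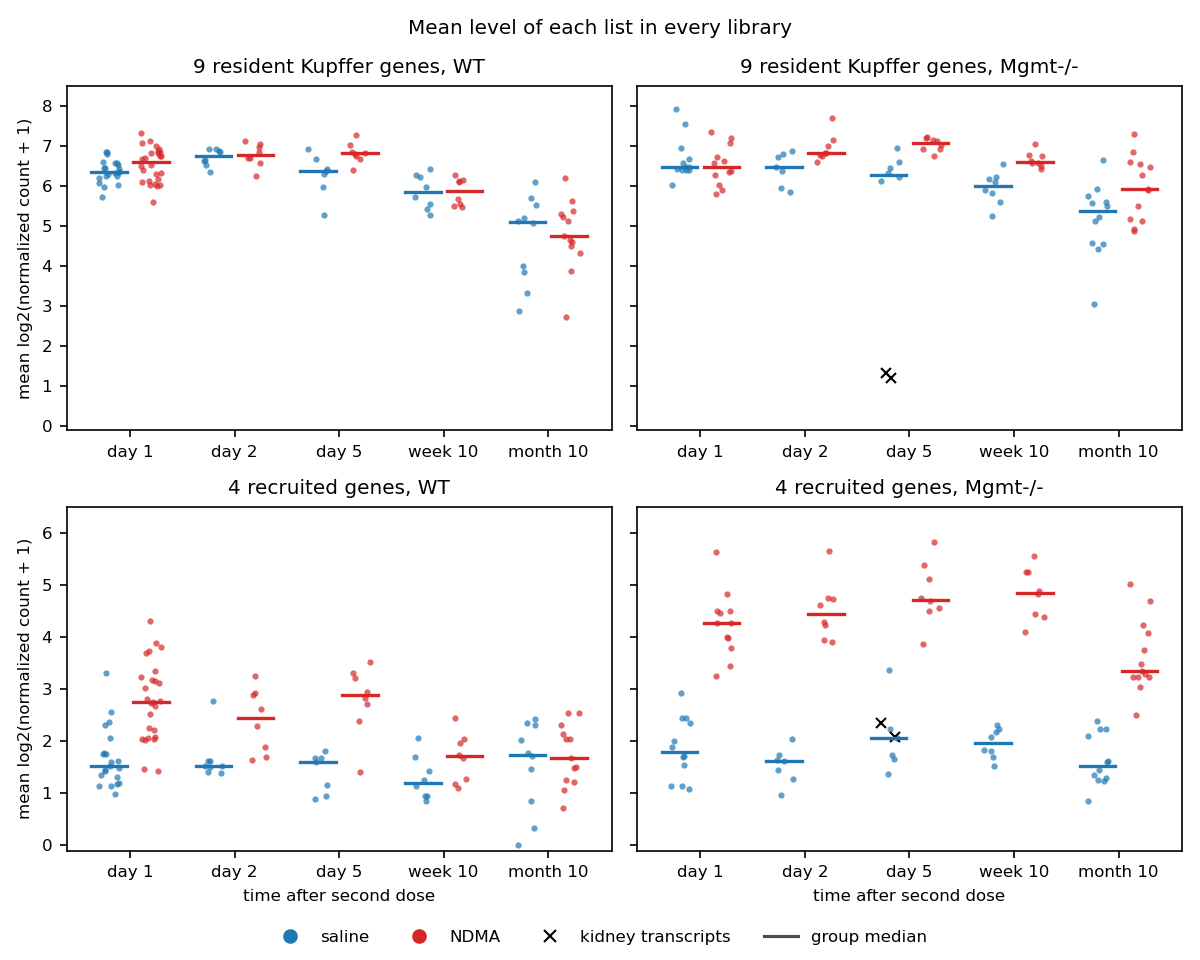
Mean of log2(value + 1) (vertical) over the 9 resident and the 4 recruited genes in each library, for WT and Mgmt-/- livers at 5 times (horizontal), each point 1 liver, blue for saline and red for NDMA, with lines at the medians and crosses for the 2 libraries with kidney transcripts. In Mgmt-/- livers the recruited mean at week 10 was 4.10 to 5.55 after NDMA and 1.53 to 2.31 after saline, while in WT the groups overlap at all 5 times. The recruited mean includes Mmp12, Gpnmb, and Trem2, which were low in saline livers, so it is not counted as support.

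Of all 34 genes in Mgmt-/- livers, 32 passed the filter at day 1, of which 14 were higher and 6 lower, where 9.06% and 8.64% of all genes tested were called higher and lower. Within batch 191212Eng alone 17 were higher and 5 lower at day 1, and within 200803Eng alone 3 of 30 tested were higher and 5 lower. Of all genes, 32.1% and 18.1% had an unadjusted limma p under 0.05 in these 2 fits, against 35.5% with both batches. At day 2, 22 of 32 were higher and none lower (background 12.4% and 7.5%). At day 5, 18 of 32 were higher and none lower (7.17% and 3.14%), and 23 of 32 higher without the kidney-bearing libraries (11.1% and 6.71%). At week 10, 20 of 31 were higher and 1 lower (7.27% and 3.88%), and at month 10, 15 of 30 were higher and none lower (4.75% and 2.99%). Cd163, the 1 lower gene at week 10 and among the 6 at day 1, had passed the filter through the saline group alone. Leaving out genes that passed only through the NDMA group, the higher calls numbered 11, 18, 14 (20 without the kidney-bearing libraries), 16, and 13. The median over the genes that passed was 0.56, 1.52, 1.97 (1.42 without the kidney-bearing libraries), 1.10, and 0.96. When all libraries were scaled to 1 common total, the median of all genes moved to 0.20, 0.19, -0.11, and 0.24 from day 1 to week 10. Under that scaling, 18 genes of the list were called higher and 5 lower at day 1, and 25, 20, and 24 were called higher at day 2, day 5, and week 10. The share of all genes at an unadjusted limma p under 0.05 was then 40.3%, 39.7%, 19.1%, and 28.0% at these 4 times. Before that scaling it was 35.5%, 36.1%, 25.5%, and 24.1%. The extra calls are therefore not read as a result about these genes.

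Among genes of macrophages in general, Mpeg1, a pore-forming protein of phagosomes, was called higher at all 5 times. At day 2 it was between 171 and 346 (median 193) after NDMA and between 28.1 and 42.6 (median 35.9) after saline, a log2 difference of 2.61 ± 0.17 (limma adjusted p = 6.93e-12), with a wide gap between the groups. Its log2 fold change was 1.2 at day 1 (limma adjusted p = 0.000362), 2.62 ± 0.25 at day 5 without the kidney-bearing libraries (5.9e-07) and 3.30 ± 0.50 with them (0.00044), 1.43 at week 10 (0.000267), and 1.05 at month 10 (0.00164). Cd14, the co-receptor for bacterial lipopolysaccharide, had its largest log2 fold change at week 10, between 57.9 and 199 (median 91.5) against 1.23 to 31.2 (median 7.30), at 3.78 ± 0.38 (limma adjusted p = 2.8e-07). All 8 NDMA livers were above every saline liver at that time. At days 1, 2, and 5 and month 10 it was at 0.90, 1.78, 2.12 (1.90 without the kidney-bearing libraries), and 2.23, each called.

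Cd68, a lysosomal glycoprotein of phagocytes, and Aif1, an actin-binding protein of macrophages, were called higher at all 5 times, at 0.97 to 2.07 and 0.75 to 2.35. Their highest values were those of day 5, which were 1.24 and 1.52 without the kidney-bearing libraries. The week 10 call of Aif1 (0.86) was lost without NDMA library D209005 (0.78) or D209006 (0.75). Lyz2, macrophage lysozyme, and Cybb, the catalytic subunit of the phagocyte NADPH oxidase, were called at the 4 later times, at 1.32 to 2.06 and 1.34 to 2.28 (at day 5, 1.44 and 1.67 without the kidney-bearing libraries). At day 1 they were at 0.79 (limma adjusted p = 0.0851) and 0.58 (0.0635). Adgre1, which encodes F4/80, was called at day 2 (1.2) and day 5 (1.93, and 1.11 without the kidney-bearing libraries), and at day 1 it was at -0.17 (0.788). Csf1r, the receptor for the growth factor CSF1, Mrc1, the mannose receptor, and Cd163, the hemoglobin scavenger receptor, went the other way at day 1. Csf1r was at -0.97 ± 0.21 (limma adjusted p = 0.000447), Mrc1 at -0.90 ± 0.16 (5.72e-05), and Cd163, between 0 and 6.88 (median 3.33) against 5.01 to 24.5 (median 7.62), at -1.58 ± 0.33 (0.00034). Cd163 was lower again at week 10, between 1.46 and 7.94 (median 3.31) against 2.83 to 19.6 (median 13.4), at -1.46 ± 0.36 (limma adjusted p = 0.0081), and at both times it had passed the filter through the saline group alone.

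Of the 3 genes of adaptors and leukocyte membranes, 2, 3, 3, 2, and 1 were called higher from day 1 to month 10. The shares of all genes tested were 9.06%, 12.4%, 7.17% (11.1% without the kidney-bearing libraries), 7.27%, and 4.75%. Fcer1g, the signaling chain shared by Fc receptors, was between 318 and 962 (median 386) against 79.1 to 182 (median 151) at day 2, a log2 difference of 1.72 ± 0.21 (limma adjusted p = 8.32e-06), with no overlap. It was not called at week 10 (0.93, limma adjusted p = 0.0595) or month 10 (0.73, 0.057). Laptm5, a lysosomal membrane protein of blood cells, was called at all 5 times, at 0.82, 1.61, 2.15 (1.54 without the kidney-bearing libraries), 1.10, and 1.5. Tyrobp, the DAP12 adaptor through which TREM2 signals, was called at days 2 and 5 and week 10 (1.26, 2.02, and 1.2, with 1.41 at day 5 without the kidney-bearing libraries). It was 0.48 (limma adjusted p = 0.113) at day 1 and 0.99 (0.128) at month 10.

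Ccr2, the chemokine receptor of inflammatory monocytes, was between 8.83 and 85.5 (median 23.5) against 2.51 to 14.9 (median 6.06) at day 1, a log2 difference of 1.77 ± 0.28 (limma adjusted p = 4.74e-06). At day 2 it was between 23.7 and 52.5 (median 37.0) against 1.72 to 3.70 (median 2.06), at 3.43 ± 0.25 (limma adjusted p = 7.5e-11). Its groups did not overlap at day 5 (2.46, and 2.31 without the kidney-bearing libraries) or week 10 (2.73 ± 0.46, 0.00019). At month 10 it was called, at 1.67 (limma adjusted p = 0.00389). From day 2 on, Ccr2 passed the filter through the NDMA group alone, so its entry to those tests already needed a difference, and Ms4a7 did so at week 10 and month 10. Ms4a7, a membrane protein of monocyte-derived macrophages, was between 25.5 and 47.6 (median 31.2) against 0 to 11.2 (median 2.98) at week 10, a log2 difference of 3.15 ± 0.37 (limma adjusted p = 3.02e-06). It was at 1.84 at day 2 and 1.54 at day 5 (1.38 without the kidney-bearing libraries), and it was not called at day 1 (0.54, 0.197) or month 10 (0.88, 0.168). The integrin genes Itgam and Itgax stayed under the mean of 5 at every time in both genotypes. Itgam was 0 to 6.91 (median 3.31) against 0 to 3.02 (median 0.615) at week 10. Itgax was 0.910 to 5.41 (median 2.03) at day 5 after NDMA, with 31 reads, and at 0 in all 8 saline libraries. With the kidney-bearing libraries left out, it was at least 7.88-fold higher against the floor of 3 reads.

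The tetraspanins Cd63, a protein of late endosomes and lysosomes, and Cd9, a protein of the cell surface and exosomes, were called higher at all 5 times once the kidney-bearing libraries were left out. Cd63 was between 119 and 339 (median 149.8) against 2.83 to 22.4 (median 18.2) at week 10, a log2 difference of 3.56 ± 0.26 (limma adjusted p = 1.11e-09), with no overlap. At day 5 it was 0.37 ± 0.81 (limma adjusted p = 0.815) with all libraries and 1.59 ± 0.12 (3.11e-10) without those 2. Cd9 was between 251 and 407 (median 277) against 49.6 to 100.5 (median 62.5) at day 2, at 2.03 ± 0.15 (limma adjusted p = 1.75e-10). Its week 10 level was between 202 and 604 (median 321) against 42.8 to 137 (median 96.5), at 1.99 ± 0.23 (limma adjusted p = 1.81e-06). Ctsb, the lysosomal protease cathepsin B, was never called, with 0.47 (limma adjusted p = 0.000511) at day 2 under the fold threshold. Slc40a1, the iron exporter ferroportin, was lower at day 1 (-0.70 ± 0.13, 5.25e-05), and this call was lost when every library was scaled to the same total (-0.51).

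In WT livers genes of the list were called at days 1, 2, and 5 and at neither later time. At day 1, 12 of 28 genes that passed were higher (Cd5l, Marco, Lgals3, Cd68, Lyz2, Mpeg1, Cybb, Laptm5, Ccr2, Ms4a7, Cd63, and Cd9) and 2 lower (Csf1r and Mrc1), where 5.01% and 4.19% of all genes were called. Of the 12, Ccr2 and Ms4a7 had passed the filter through the NDMA group alone, and 10 were higher without them. The Csf1r call was lost with a pseudocount of 5, no covariates, or equal totals (-0.54 to -0.52), and those of Cybb (0.55), Laptm5 (0.55), and Ms4a7 (0.51) with a pseudocount of 5. Laptm5 was also lost with no covariates (0.57) and Ms4a7 with no filter (0.85, limma adjusted p = 0.0514). Cd9 was between 28.5 and 467 (median 151) against 26.7 to 93.0 (median 57.1), a log2 difference of 1.37 ± 0.18 (limma adjusted p = 5.43e-08), with 24 of 26 NDMA livers above every saline liver. Lgals3 was between 22.6 and 129 (median 59.5) against 11.4 to 171 (median 21.4), at 1.13 ± 0.18 (limma adjusted p = 3.36e-06), with no NDMA liver above the highest saline liver. Clec4f was between 78.3 and 492 (median 164) against 81.2 to 584 (median 233), at -0.53 ± 0.12 (limma adjusted p = 0.000497), just under the fold threshold. These day 1 calls rested on 2 of 3 batches. Within 191212Eng (8 NDMA, 8 saline) 12 genes were higher and 3 lower, and within 210901Eng (12 and 9) 12 were higher and 0 lower. These were not the same 12, since Cybb, Laptm5, and Mpeg1 were not called in 210901Eng (limma adjusted p = 0.078, 0.101, and 0.103), Ccr2 was not tested there, and Ms4a7 was not called in 191212Eng (0.233). Within 200803Eng (6 and 4) none was called, 7 of the 12 had the opposite sign, and no gene of the table was called. Of all genes, 27.0%, 29.0%, and 2.94% had an unadjusted limma p under 0.05 within 191212Eng, 210901Eng, and 200803Eng. With the 3 batches together it was 32.3%. In 200803Eng the recruited mean was 2.65 ± 0.67 after NDMA and 2.64 ± 0.46 after saline, against 2.99 ± 0.66 and 1.42 ± 0.28 in 191212Eng.

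At day 2 in WT, 7 of 29 were higher (Marco, Lgals3, Lyz2, Aif1, Mpeg1, Tyrobp, and Fcer1g) and 3 lower (Clec4f, Vsig4, and Mrc1), beside 3.33% and 2.91% of all genes. Lgals3 was between 35.03 and 96.5 (median 63.1) against 9.34 to 34.8 (median 20.51), a log2 difference of 1.67 ± 0.27 (limma adjusted p = 0.000979), with no overlap. Clec4f was between 94.8 and 347 (median 171) against 182 to 356 (median 290.2), at -0.67 ± 0.20 (limma adjusted p = 0.0433), and Vsig4 was at -0.63 ± 0.19 (0.0427). The Vsig4 call was lost with edgeR (-0.46, edgeR adjusted p = 0.157) and DESeq2 (-0.47, DESeq2 adjusted p = 0.0608), and that of Lyz2 with edgeR (0.61, edgeR adjusted p = 0.0731). Those of Clec4f and Vsig4 were also lost with no filter, no covariates, or equal totals. The calls of Clec4f and Vsig4 were lost in 14 and 12 of 16 fits that left out 1 library, that of Mpeg1 was lost without saline library D215002 (0.579, under the fold threshold), and the lower calls numbered between 1 and 5 over those fits, with 5 without saline library D215004. At day 5, 8 of 28 were higher (Cd5l, Lgals3, Lyz2, Aif1, Mpeg1, Tyrobp, Fcer1g, and Laptm5) and none lower, beside 2.22% and 1.39% of all genes. Cd5l was between 321 and 713 (median 414) against 104 to 416 (median 169.8), a log2 difference of 1.18 ± 0.21 (limma adjusted p = 0.00385). The count was 15 without the NDMA library under 300000 reads (D215014) and 5 without saline library D202009. Without D202009 or saline library D202010 the calls of Lgals3 (1.25 and 1.26) and Fcer1g (0.94 and 0.98) were lost, as was that of Laptm5 (0.87) without D202009.

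No gene of the list was called in WT at week 10 (28 passed) or month 10 (27 passed), with limma, edgeR, or DESeq2, where 0.0249% and 0% of all genes were called higher and none lower. Over all genes, 350 and 757 had an unadjusted limma p under 0.05 at these times. Log2 fold changes of the listed genes were between -1.26 (Cd163) and 0.49 (Timd4) at week 10 and between -0.57 (Cd163) and 0.82 (Cd68) at month 10. Lgals3 was between 7.63 and 21.5 (median 11.98) after NDMA and between 5.72 and 22.5 (median 12.7) after saline at week 10. Mmp12, Gpnmb, and Trem2 stayed under the mean of 5 in WT throughout, so they were not tested there by limma. At day 1, where most mice were available, Mmp12 was 0 to 14.6 (median 2.07; 186 reads) after NDMA and 0 to 2.56 (median 0; 6 reads) after saline. At day 5 in WT, Mmp12 was 0 to 8.82 (median 2.78; 16 reads) against 0 to 3.35 (median 0; 2 reads), and Gpnmb was 0 to 10.4 (median 2.85; 19 reads) against 0 to 0.781 (median 0; 1 read). In the edgeR fit of both genotypes their day 5 log2 fold changes were 3.24 and 4.17 in WT and 2.47 and 3.92 in Mgmt-/- livers, and the differences between genotypes were not called (edgeR adjusted p = 0.853 and 0.907). Both genes had passed edgeR's filter on low counts through the Mgmt-/- NDMA libraries alone. The Mgmt-/- values also include the 2 kidney-bearing saline libraries, so these tests do not decide whether the genotypes differed. Mmp12 was 0 to 18.9 (median 3.35; 23 reads) after NDMA at day 2 in WT and 0 to 3.86 (median 0) after saline.

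**Figure D4:**
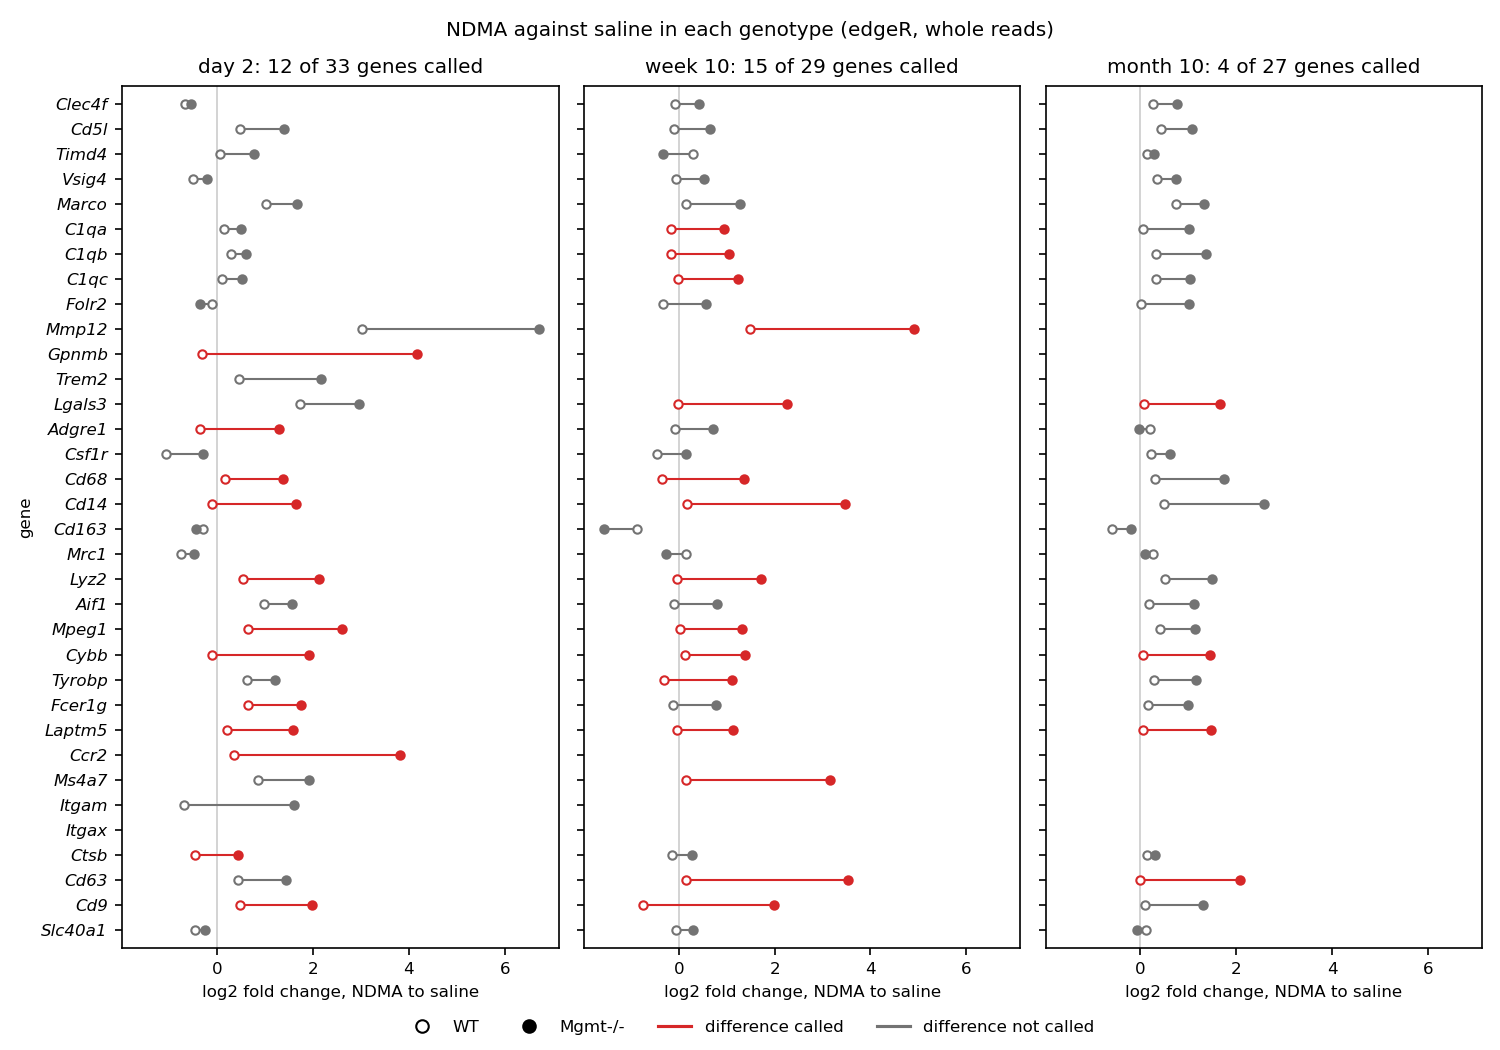
Log2 fold change (NDMA minus saline, from edgeR on whole reads; horizontal) in WT and Mgmt-/- livers for the genes tested for a genotype by treatment term (vertical) at day 2, week 10, and month 10, with open points for WT, filled points for Mgmt-/-, and a line joining the 2, red where the difference was called. At week 10 Cd63 lies at 0.16 in WT and 3.53 in Mgmt-/-, and Lgals3 at -0.02 and 2.27.

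The difference between the genotypes was tested itself, as a genotype by treatment term with edgeR on whole reads of both genotypes normalized together. At day 1 it was called for 0 of 31 genes tested, where 0.0695% of all genes were called (0 also with DESeq2 size factors, and 7 at an unadjusted edgeR p under 0.05). It was called for 12 of 33 at day 2 (4.03% of all genes) and for 0 of 30 at day 5 (0.949%). At day 5, 5 genes had an unadjusted edgeR p under 0.05, and 3 were called without the kidney-bearing libraries. At week 10 it was called for 15 of 29 (6.15%) and at month 10 for 4 of 27 (1.63%). Gpnmb at day 2 and Mmp12 and Ms4a7 at week 10 had passed edgeR's filter on low counts through the Mgmt-/- NDMA libraries alone, so that their entry already needed a high level there. Without the genes that entered in this way, the calls numbered 11 of 29 for day 2, 13 of 27 for week 10, and 4 of 26 for month 10. In every called term of these 5 tests the log2 fold change was more positive in Mgmt-/- than in WT livers. At week 10 Lgals3 had log2 fold changes of -0.02 in WT and 2.27 in Mgmt-/-, a difference of 2.29 (edgeR adjusted p = 8.7e-05), and Cd63 had 0.16 and 3.53, a difference of 3.37 (1.3e-07). At day 2 Mpeg1 had 0.65 and 2.61, a difference of 1.96 (edgeR adjusted p = 9.2e-05). For Clec4f at day 1 the difference was -0.68 (edgeR adjusted p = 0.28). Since the batches of the genotypes were separate at day 2, day 5, and week 10, genotype cannot be told apart from batch at those times.

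Other genes of these cells were counted from lists of known markers in Mgmt-/- livers, with day 5 values from all libraries unless stated. Genes that passed the filter through the NDMA group alone were not taken out of the counts of these lists. Of all genes tested, 8.64%, 7.5%, 3.14%, 3.88%, and 2.99% were called lower from day 1 to month 10, beside the shares called higher above. Some counts were near those shares, such as 1 of 10 iron genes higher and 2 of 18 genes of lysosomes and lipid handling higher and 2 lower at day 1. Of 12 regulators of Kupffer cell identity, 2, 5, 2, 2, and 1 were higher from day 1 to month 10 (of 12, 12, 12, 11, and 10 tested). Lower was 1 gene, Maf at day 1 (-0.68 ± 0.23, limma adjusted p = 0.025). Irf8, a transcription factor of the monocyte lineage, averaged 59.8 after NDMA and 12.6 after saline at day 2 (2.20 ± 0.21, 5.53e-09), and Spic, a factor of iron-recycling macrophages, was at 2.33 at day 5 (1.40 without the kidney-bearing libraries). Of 14 other Kupffer genes, 0, 5, 5, 4, and 1 were higher and 3, 3, 0, 1, and 1 lower. Vcam1, an adhesion molecule, was at 1.87 at week 10 and Ccl24, a chemokine, at 1.23 at month 10, while Hpgd, which breaks down prostaglandins, was at -0.85 at day 1 and Fcna, a ficolin, at -0.82 at day 2. Of 12 monocyte genes, of which 4 to 6 were tested, 2, 4, 4, 3, and 1 were higher and none lower. Ly6c2, a surface marker of inflammatory monocytes, averaged 65.2 against 9.0 at day 2 (2.66 ± 0.30, limma adjusted p = 4.13e-07).

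Of 12 ligands that draw or sustain macrophages, of which 5 to 7 were tested, 4, 6, 3, 3, and 1 were higher and none lower. Ccl2, the main ligand of CCR2, averaged 151 after NDMA and 6.64 after saline at day 2 (4.44 ± 0.37, limma adjusted p = 1.54e-07), and Ccl7, another CCR2 ligand, was at 4.09 at day 5 (3.80 without the kidney-bearing libraries). Ccl7 averaged 32.7 after NDMA and 1.19 after saline at day 5. It thus passed the filter through the NDMA group alone, so its call is not counted as support. Of 9 genes of TREM2 and DAP12 signaling, of which 1 to 4 were tested, 2 were higher at day 2, 3 at day 5, and none at other times. Vav1 was at 2.28 and Hcst at 2.13 at day 5 (1.82 and 1.79 without the kidney-bearing libraries). Of 18 genes of lysosomes and lipid handling, 2, 6, 5, 6, and 6 were higher and 2, 1, 0, 0, and 0 lower. Ctss, a lysosomal protease of antigen-presenting cells, was at 2.84 at day 5 (2.05 without the kidney-bearing libraries). Lpl, lipoprotein lipase, was lower at day 1 (-0.83) and higher at week 10 (2.82 ± 0.23, 5.57e-09), where it averaged 207 against 31.5, and Apoe, which hepatocytes also make, was at -0.87 at day 1.

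Of 10 Fc and scavenger receptor genes, 2, 5, 5, 6, and 3 were higher and 4, 2, 0, 0, and 0 lower. Clec7a, the glucan receptor dectin-1, was at 3.20 and Fcgr4, an activating Fc receptor, at 3.14 at day 5 (2.70 and 2.54 without the kidney-bearing libraries). Cd209f, a lectin, was at -1.75 at day 2 and Stab2, which sinusoidal endothelium expresses, at -1.43 at day 1. Of 10 iron genes, 1, 3, 2, 3, and 3 were higher and 1 lower (Trf, transferrin, -0.75 at day 1). Hamp, the hepatocyte hormone hepcidin, was between 555 and 3419.5 (median 2154) after NDMA and between 1.48 and 1754 (median 6.60) after saline at day 2, at 5.88 ± 1.51 (limma adjusted p = 0.0116). The means were 1964 ± 973 (SD, n = 8) and 468 ± 794 (n = 7), a smaller ratio of 4.20, and the groups overlapped. At day 5 Slc11a1, a metal transporter of phagosomes, was at 2.08 (1.53 without the kidney-bearing libraries). Of 12 inflammatory genes, of which 6 or 7 were tested, 4, 4, 3, 3, and 3 were higher and 1 lower (Il18, -0.85 at day 1). Cxcl9 and Cxcl10, ligands of CXCR3 on T cells, were at 4.88 at day 5 (3.95 without the kidney-bearing libraries) and 4.40 at day 2. Without those libraries, day 5 gave 3 regulators higher, 7 other Kupffer genes higher and 1 lower, 7 lysosome and lipid genes higher, and 6 Fc and scavenger receptors higher and 2 lower. It gave 4 monocyte genes, 3 ligands, 3 TREM2 and DAP12 genes, 3 iron genes, and 4 inflammatory genes higher. In WT, each of these lists had at most 4 genes higher and at most 3 lower at any of days 1, 2, and 5, with 3 other Kupffer genes lower and 0 higher at day 1 and 2 lysosome and lipid genes lower and 0 higher at day 2, and none was called in either direction at week 10 or month 10. Over all genes tested in WT, 5.01%, 3.33%, and 2.22% were called higher and 4.19%, 2.91%, and 1.39% lower at days 1, 2, and 5.

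Markers of other cells moved alongside the macrophage genes in Mgmt-/- livers, and their part in the results was not tested. From day 1 to month 10, 9.06%, 12.4%, 7.17%, 7.27%, and 4.75% of all genes tested were called higher. Called lower were 8.64%, 7.5%, 3.14%, 3.88%, and 2.99%. The summed level of 11 T and NK cell markers had a median of 171 against 58.4 at day 1, 389 against 63.8 at day 2, and 400.2 against 47.7 at day 5. Of 6 tested, 4, 6, and 6 were called higher (6 at day 5 also without the kidney-bearing libraries), and Gzma was the most abundant after NDMA (mean 138 at day 5). At week 10 it was 49.2 against 29.4, with 1 of 4 higher, and at month 10 20.6 against 11.4, with none tested. Of the neutrophil markers, 4, 3, 1, 0, and 0 were called lower and 0, 1, 0, 2, and 0 higher among 7, 6, 6, 6, and 4 tested, with 5 lower at day 5 without the kidney-bearing libraries. Their sum, led after NDMA by S100a8, had a median of 289.6 against 462 at day 1, 144 against 319.9 at day 2, and 82.2 against 301 at day 5. It was 197 against 79.1 at week 10 and 48.4 against 47.5 at month 10. Of the B and plasma cell markers Cd79b was called lower at day 1 and Jchain higher at week 10, with Cd79a at 0 in all saline libraries of that time. Of the dendritic markers, Bst2, an interferon-induced gene of many cells, was called higher at days 1 and 2 and month 10 and Ccr7, a homing receptor, at day 5.

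Bile duct markers, led by Spp1, had a summed median of 826 against 86.9 at week 10 and 369 against 87.0 at month 10, with Spp1 the 1 gene called of 2 tested. Lipid-associated macrophages also express Spp1, so the cells behind this sum cannot be told apart here. Spp1 was called lower at day 1 (-0.79) and day 5 (-2.52, and -1.41 without the kidney-bearing libraries). Stellate cell and fibroblast markers, led by Dcn, were lower in 4, 3, and 2 cases of 7 tested at days 1, 2, and 5 and higher in 1, 1, and 0 (at day 5 without the kidney-bearing libraries, 2 lower and 1 higher). They were higher in 4 of 7 at week 10 (summed median 672 against 401) and 3 of 8 at month 10. Endothelial markers were higher in 1, 2, 0, 1, and 1 and lower in 3, 1, 0, 0, and 0 cases of 7, 7, 7, 7, and 8 tested from day 1 to month 10, with 1 higher and 2 lower at day 5 without the kidney-bearing libraries. The endothelial counts of 0 or 1 were near the shares of all genes. Erythroid markers were lower in 5, 3, and 4 (6 without those libraries) cases at days 1, 2, and 5 and called in none later. Hepatocyte markers were lower in 3, 3, 0, 1, and 0 of 5 cases and higher in 1 case at month 10. At day 5 the hepatocyte markers turned direction with the kidney-bearing libraries, with a median log2 fold change of 1.66 and all 5 positive with them, and -0.48, none positive, and 1 called lower without them. The sum of the 5 kidney markers was at most 21.5 in the Mgmt-/- libraries of day 1, day 2, week 10, and month 10. In WT, T and NK cell markers were called higher in 5, 3, and 3 of 6 at days 1, 2, and 5 and in 0 of 2 at week 10, with none tested at month 10, and with summed medians of 96.7 against 50.2, 159.6 against 68.0, and 124 against 44.3. Of the WT neutrophil markers, of which 2 to 6 were tested, 1 was called, higher at day 1. Stellate cell and fibroblast markers in WT were lower in 3, 1, and 1 and higher in 1, 1, and 0 of 7 tested at days 1, 2, and 5. The 1 dendritic marker tested in WT was higher at days 2 and 5. At day 1 in WT, 1 of 2 bile duct markers was higher and 1 of 8 endothelial markers lower, and at day 2 1 of 5 hepatocyte markers was lower. Over all genes tested in WT, 5.01%, 3.33%, and 2.22% were called higher at days 1, 2, and 5. The shares called lower there were 4.19%, 2.91%, and 1.39%. Single calls in lists this small are not read as a result.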

How the data were processed

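RNA from 213 livers was analysed, and the library labelled for 1 further Mgmt-/- saline mouse of month 10 was not analysed here. The authors aligned reads to the mouse genome (GRCm38/mm10) with STAR and counted them at 3' ends with ESAT, and the deposited values are read counts divided by a DESeq2 size factor, a signal that was normalized for each genotype by itself. Whole reads were recovered from the steps between low values in 114 of 117 WT and 95 of 96 Mgmt-/- libraries, and 100% of the values of each came out whole within 0.1 reads. The 4 others, 3 WT saline livers of day 2 (D202001, D202003, and D215002) and 1 Mgmt-/- NDMA liver of day 1 (D389094), did not enter edgeR or DESeq2. The 34 genes and all lists were chosen with earlier results of these data known.

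NDMA was compared with saline within each genotype and time with limma 3.58.1 (trend and robust; R 4.3.3) on log2(value + 1), with sex and library batch as terms where batches differed, over all genes with a mean of at least 5, with Benjamini-Hochberg adjustment and calls at an adjusted p under 0.05 and a log2 fold change over 0.58. In WT at day 2, day 5, and week 10 each batch held 1 sex. The genotype by treatment term used the 209 libraries with whole reads and the quasi-likelihood test of edgeR 4.0.16 after TMM scaling. Other settings tried were a pseudocount of 0.5 or 5, a minimum mean of 20 or none, no covariates, equal totals, no fold threshold, edgeR, DESeq2 1.42.0, single batches, and left-out libraries. The genes named by rule were the 9 resident and 4 recruited genes and, from each other role, 2 genes. These 2 had the largest absolute mean log2 fold change over the Mgmt-/- comparisons among those tested in all 5. Not every time or genotype is given for each of these genes. From each further list, genes with the largest rise and fall are named, and any gene named outside this rule was picked with its values in view. The p-values measure the spread between livers, 1 per mouse. Litters were assigned whole to a treatment, and which mice shared a litter is not given in the sources used here, so litter was not entered as a term. Whether duplicate reads were collapsed is not given in the sources used here, and floors of 3 reads cover counting error only. No 2 libraries held identical values. Scripts were tested on simulated data. Values of some genes of the further lists are not reported here.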

Additional observations from a re-analysis of the deposited data

Results flagged for a closer look

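Single libraries stood far from the rest of their group in 28 of 260 checks, by the gap to the nearest other library as a share of the group's range. Each check took 1 gene, or the mean of 1 list, in 1 group of at most 10 libraries. Chance alone would give about 1 in 20 checks if they were independent. Checks of several genes in the same libraries are not independent, so the 2 rates are not compared. Groups of more than 10 libraries (day 1 and most of month 10) were not examined. In Mgmt-/- NDMA livers at day 2, D389077 (2588535 reads) was above the other libraries for Cd5l (702 against 358 to 492), Timd4 (114 against 51.6 to 72.3), Marco (351 against 136 to 193), C1qb (418 against 151 to 222), and C1qc (316 against 137 to 192). In Mgmt-/- saline livers at week 10, D209001 was low for C1qb (45.9 against 105 to 157) and Fcer1g (27.1 against 169.8 to 305) and D209004 for Cd63 (2.83 against 12.5 to 22.4). In Mgmt-/- NDMA livers at week 10, D209006 was high for C1qb (336 against 194 to 250.4) and Fcer1g (465 against 251 to 322), and D209005 had Gpnmb at 0 (5.84 to 14.2 in the others). Timd4 was 26.3 in D389066 at day 5 after NDMA (45.3 to 71.7 in the others).

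In WT, the 3 libraries under 300000 reads at day 2, day 5, and week 10 accounted for 8 cases. D215006 (day 2, 150038 reads) was high for C1qb (358 against 128 to 148) and low for Cd63 (116 against 221 to 335). D215014 (day 5, 202626 reads) was low for C1qc (32.8 against 119 to 259.7), Cd63 (65.6 against 194 to 314), and Cd9 (32.8 against 65.4 to 115). D215022 (week 10, 270673 reads) was high for Clec4f (438 against 107 to 198) and C1qb (239.6 against 53.9 to 89.1) and had Cd63 at 0 (10.7 to 21.1 in the others). Among the other WT NDMA libraries, Marco was 53.6 in D215007 at day 2 (90.7 to 137), Folr2 25.7 in D215016 at day 5 (41.0 to 54.0), and Cd14 2.20 in D215013 at day 5 (11.98 to 32.8). Among WT saline libraries, Marco was 0.978 in D202016 at week 10 (5.67 to 17.7), Cd63 3.00 in D202017 at week 10 (12.7 to 25.9) and 3.17 in D202025 at month 10 (8.11 to 16.4), and Laptm5 0 in D215028 at month 10 (9.50 to 41.6). The mean log2(value + 1) of the 4 recruited genes was 2.77 in saline library D215004 at day 2 (1.39 to 1.63 in the others).

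The edgeR genotype by treatment term was called for 31 gene and time pairs, with a more positive log2 fold change in Mgmt-/- in each. Of all genes tested, 4.03%, 6.15%, and 1.63% were called at day 2, week 10, and month 10. Since the batches of the genotypes were separate at day 2 and week 10, genotype cannot be told apart from batch at those times. At day 2 the differences on the log2 scale were 4.49 for Gpnmb (which passed edgeR's filter through the Mgmt-/- NDMA libraries alone), 3.47 for Ccr2, 2.02 for Cybb, 1.96 for Mpeg1, 1.74 for Cd14, 1.64 for Adgre1, 1.59 for Lyz2, 1.51 for Cd9, 1.37 for Laptm5, 1.22 for Cd68, 1.10 for Fcer1g, and 0.92 for Ctsb. At week 10 they were 3.43 for Mmp12, 3.37 for Cd63, 3.31 for Cd14, 3.01 for Ms4a7, 2.73 for Cd9, 2.29 for Lgals3, 1.76 for Lyz2, 1.71 for Cd68, 1.42 for Tyrobp, 1.30 for Mpeg1, 1.25 for C1qc, 1.25 for Cybb, 1.23 for C1qb, 1.16 for Laptm5, and 1.10 for C1qa, of which Mmp12 and Ms4a7 had entered in the same way. At month 10 they were 2.09 for Cd63, 1.6 for Lgals3, 1.42 for Laptm5, and 1.38 for Cybb.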

How the results depend on the processing

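Counts of called genes depended most on batches and thin libraries, and the causes were not tested. In WT at day 1, batch 200803Eng alone gave 0 higher and 0 lower, with opposite signs for Cd5l (-0.30), Cd68 (-0.22), Cybb (-0.089), Lyz2 (-0.10), Marco (-0.39), Mpeg1 (-0.20), and Ms4a7 (-0.37), and in Mgmt-/- it gave 3 higher. These single-batch fits, and those without kidney-bearing libraries in edgeR, DESeq2, and the genotype term, or without thin libraries in that term, were chosen after seeing the data. The 2 lower WT genes of day 1 became 1 with a pseudocount of 5, no covariates, or equal totals, 4 with no fold threshold, and 0 in batch 210901Eng alone. The 3 lower WT genes of day 2 became 1 with no filter, no covariates, or equal totals. The 8 higher WT genes of day 5 became 15 without libraries under 300000 reads. In Mgmt-/-, lower calls became 1 at day 2 with no fold threshold, 1 at day 5 with edgeR and with DESeq2 without the kidney-bearing libraries, and 0 at week 10 with a mean of at least 20. The day 5 genotype term rose from 0 to 3 genes without those libraries, and the week 10 call of Mmp12 (3.43) was lost without libraries under 300000 reads (3.37). With 1 library left out, the higher count ranged from 6 to 8 and the lower from 1 to 5 in WT at day 2, the higher from 5 to 15 in WT at day 5, and the lower from 0 to 1 in Mgmt-/- at day 2 (1 without NDMA libraries D389077 or D389071). The higher count ranged from 21 to 24, 14 to 19, and 18 to 22 in Mgmt-/- at day 2, day 5, and week 10. Over the log2 fold changes of single called genes under all alternatives, 2401 kept their direction and their side of the threshold, 116 fell short of it, and 7 reversed. With all libraries, the Mgmt-/- day 5 calls of C1qc, Adgre1, Cd68, and Marco were lost in 10, 7, 3, and 3 of 16 fits that left out 1 library, and all 4 were called without the kidney-bearing libraries. No paired analysis was possible because the labels give each mouse a number of its own, which groups do not share.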

Other observations

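Markers of dividing cells were not among the macrophage genes, and their levels were read from a list of 6 genes in the same livers. In Mgmt-/- livers the medians of their summed level from day 1 to month 10 were 423, 599, 311, 110.5, and 36.9 after NDMA and 358, 289.6, 222, 20.7, and 12.2 after saline. By limma, 1, 3, and 2 of 6 tested were called higher at days 1, 2, and 5 (2 at day 5 also without the kidney-bearing libraries), 3 of 3 at week 10, and 1 of 3 at month 10. Of all genes tested, 9.06%, 12.4%, 7.17% (11.1% without those libraries), 7.27%, and 4.75% were called higher. The 1 of 6 at day 1 was near that share. At week 10 Birc5, an inhibitor of apoptosis that acts in mitosis, was at 2.55. Top2a, a topoisomerase of dividing cells, was at 1.79 and Cdk1, the mitotic kinase, at 1.72. In WT livers none was called of the 6 tested at days 1, 2, and 5 or the 3 tested at week 10, none was tested at month 10, and the summed medians from day 1 to month 10 were 325, 227, 206, 24.2, and 14.0 after NDMA and 285, 142, 169, 22.8, and 10.6 after saline. The cells that carried these transcripts cannot be told from bulk libraries.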
